A study of Homo sapiens with 50 samples.

Results

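Of 3443 short hairpins (shRNAs) carried through the replicative lifespan of IMR90 cells, 44 were at least 2-fold more abundant at both of the last 2 sampling times than at the first. Members were chosen by 3 conditions on CPM, the tags of a hairpin per 1000000 tags of its column. A hairpin needed at least 10 tags at population doubling (PD) 40, a CPM at PD55 at least 2 times that at PD40, and a CPM at PD60 at least 2 times that at PD40. The values at PD40, PD55 and PD60 therefore chose the members and are given below as a description, with no test. Of the 3418 hairpins with at least 10 tags at PD40, the 44 are 1.29%.

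IMR90 is a human lung fibroblast line with a finite lifespan in culture, at whose end the cells enter replicative senescence and divide no more. Lentiviruses with hairpins against regulators of chromatin, together with controls that included lamin B1 and non-targeting hairpins, were randomly divided among 5 pools and combined into 10 paired pools, each infecting 1 plate at a multiplicity of infection of 0.3. Plates were grown at 3% oxygen and sampled at PD40, PD45, PD50, PD55 and PD60. All 5 groups were the same infected line, with PD40 as the proliferating control and PD60 as the senescent end. No group was free of virus. The question was which genes limit lifespan, since cells that lose such a gene should outgrow their neighbours. Hairpin DNA was amplified and sequenced, and the deposited columns, 1 per time, held 8626437, 8782622, 8479667, 11505688 and 8270745 tags from PD40 to PD60.

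An shRNA is cut by the cell into a small interfering RNA that guides the degradation of a matching messenger RNA. Several hairpins are made for each gene because they differ in how well they lower it and in which other transcripts they touch. The integrated hairpin is copied with the genome at each division, so its share of the tags follows the share of cells that carry it.

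The 44 hairpins came to hold most of the tags. From PD40 to PD60 they held 4.29%, 13.6%, 33.6%, 63.1% and 59.7% of the tags of the 5 columns. The exact 95% binomial interval of the PD60 share was 59.7% to 59.8%, and it covers counting error only. The non-targeting hairpin had 4562, 1775, 669, 133 and 39 tags, and its CPM was 112-fold lower at PD60 than at PD40. That is a ratio of 0.00892, against a median of 0.000955 over all 3418 hairpins, so the control was less far below its start than most hairpins. CPM is a share of a column, so a hairpin can be higher only where others are lower. There was 1 column per time, combined from plates, and no replicate, so the spread between cultures is unknown. Whether a member was high on 1 plate or on several was not tested.

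Members started from ordinary to high abundance. Their PD40 tags ran from 579 to 58407 with a median of 3994, against a median of 1032 over the 3418 hairpins. Of the 44, 30 were among the 684 most abundant hairpins at PD40, and 4 were among the 50 most abundant. At PD60 29 of the 50 most abundant hairpins were members. Of the 10 most abundant, 8 were members at PD55 and 5 at PD60. Over the 5 times the median rank of the members was 505.5, 164, 68.5, 38 and 33.5, where rank 1 is the most abundant hairpin.

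The path before PD55 was not used by the rule, apart from PD40 as its base. At PD45 42 of 44 members were above their PD40 CPM, and 28 were at least 2-fold higher. Over all 3418 hairpins, 17.8% were above PD40 at PD45 and 5.76% were at least 2-fold higher. At PD50 43 of 44 members were above PD40 and 35 were at least 2-fold higher, against 10.0% and 4.89% of all hairpins. The median ratio to PD40 was 2.44 at PD45 and 4.39 at PD50 for the members, while for all hairpins the medians were 0.312 and 0.0673. Among the 2279 hairpins with as many PD40 tags as the lowest member, 23.8% were above PD40 at PD45 and 7.77% were at least 2-fold higher. At PD50 these shares were 13.8% and 6.80%, and the medians at PD45 and PD50 were 0.472 and 0.140.

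The step between PD45 and PD50 shares no column with the rule. Over this step 39 of 44 members were higher and 20 were at least 2-fold higher, with a median ratio of PD50 to PD45 of 1.80. Of the 3102 hairpins with at least 10 tags at PD45, 9.35% were higher and 2.29% at least 2-fold higher, with a median of 0.246. Among the 2274 of these with as many PD40 tags as the lowest member, the shares were 10.6% and 2.37%, with a median of 0.304. Each PD of a culture follows from the one before, so these counts describe 1 history and are no independent repeat of the late times.

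For comparison, 34 hairpins were at least 2-fold higher at PD60 but not at PD55, and 55 were so at PD55 but not at PD60. Of the members 63.6% were already 2-fold higher at PD45, against 8.82% of the hairpins high only at PD60 and 54.5% of those high only at PD55. At PD50 the shares were 79.5% for the members, 8.82% for the PD60-only hairpins and 87.3% for the PD55-only hairpins. The median ratio to PD40 at PD50 was 4.39 for the members, 0.672 for the PD60-only hairpins and 4.68 for the PD55-only hairpins. The members held 33.6% of the tags at PD50 and the PD55-only hairpins 18.7%, from 4.29% and 4.03% at PD40. At PD60 the 44 members held 59.7% of the tags, the 34 PD60-only hairpins 30.3% and the 55 PD55-only hairpins 2.98%. With 1 column per time the differences between these sets have no replicate check.

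Paths within the set differed. In 27 members the CPM was at least 2-fold above PD40 at all 4 later times. SETD2, PADI4, IL12A, H2AFZ, EP300, TRIM24, MYST1 and FOXC2 hairpins, 8 in all, passed 2-fold at PD50 but not at PD45, and the PRDM16 hairpin passed it at PD45 but not at PD50. Another 8 members passed it at neither time, those against H2BFS, TGM2, LMNB1, ACTL6A, GLI1, MORF4, DDX1 and ID3. The CPM was higher at every step in 11 members, against TSSK6, SETD2, HIST1H2AH, SIRT1, LMNB1, ATR, PADI4, MYST1, ACTL6A, ELP3 and DDX1. It was below PD40 at PD45 or PD50 in 3 members, against H2BFS, TGM2 and ID3.

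The last step divided the members almost evenly. From PD55 to PD60 21 members were higher, 11 of them at least 2-fold, and 23 were lower, 13 of them at least 2-fold. The highest CPM was reached at PD60 by 20 members, at PD55 by 19, at PD50 by 3 (MAF, STK11 and a TGM1 hairpin) and at PD45 by 2 (BRD2 and SUPT16H). Among the 23 members lower at PD60 than at PD55, the highest CPM was 1.23 to 7.99 times that at PD60, with a median of 2.32. The largest step was the first one, PD40 to PD45, in 19 members, PD45 to PD50 in 10, PD50 to PD55 in 8 and PD55 to PD60 in 7.

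The 12 members most abundant at PD60 held 2.15%, 6.78%, 15.9%, 33.7% and 44.0% of tags over the 5 times. Members are described below by the role of their target, with CPM given from PD40 to PD60. Values in parentheses after a ratio to PD40 are its exact 95% counting interval. TSSK6, a serine kinase known from testis, where the mouse protein is needed to condense sperm chromatin, was targeted by the most abundant hairpin at PD60. TSSK6 TRCN0000037459 had 1205, 6695, 18176, 64508 and 87037 CPM. Its ratio to PD40 was 53.5 (52.5 to 54.6) at PD55 and 72.2 (70.8 to 73.6) at PD60, and the smaller of these was the highest in the set. The other 4 TSSK6 hairpins were at least 2-fold lower at PD60 and had at most 231 tags there, although 2 of them were at least 2-fold higher at PD50.

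Histone chaperones hold histones outside the nucleosome. On the chaperone list 2 of 132 hairpins were members (1.52%), close to the 1.29% of all hairpins. NAP1L4, a chaperone of H2A and H2B, was the target of TRCN0000154499, the most abundant hairpin at both PD50 and PD55. It had 4585, 15751, 57294, 129508 and 69927 CPM, so it was lower at PD60 than at PD55 while 15.3-fold above PD40. The other 4 NAP1L4 hairpins started at 2358 to 30522 tags and had at most 482 at PD60. SUPT16H, a subunit of the FACT chaperone, was the target of TRCN0000001258, which had 133, 2251, 2029, 2122 and 482 CPM. The SUPT16H hairpin was at its highest share by PD45, held near it to PD55 and was 3.61-fold above PD40 at PD60.

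Histones gave 5 members among 407 hairpins, or 1.23%, close to the 1.29% of all hairpins. H2BFS, a histone H2B gene whose current symbol in RefSeq is H2BC12L, was the target of TRCN0000106904. The H2BFS hairpin had 1724, 1463, 2796, 5132 and 68634 CPM, below its start at PD45 and with a ratio to PD40 of 2.98 (2.92 to 3.03) at PD55 and 39.8 (39.2 to 40.5) at PD60. Most of its gain lay in the last step. TRCN0000106761, against the canonical H2A gene HIST1H2AH, took a steadier path with 373, 987, 3099, 9966 and 19942 CPM, higher at each step. Of 5 other hairpins naming HIST1H2AH, 1 was also at least 2-fold higher at PD60 (TRCN0000106659) and 4 were at least 2-fold lower. TRCN0000106659 names 4 histone genes, HIST1H2AH among them, which its tags do not tell apart.

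The remaining histone members were all past their highest share by PD60. H2AFZ encodes the variant H2A.Z, which marks promoters and enhancers, and TRCN0000072585 had 1468, 2111, 12659.5, 17286 and 3615 CPM. Another H2AFZ hairpin, TRCN0000072584, was 2.24-fold above PD40 at PD60 and below it at PD55, and the other 3 were at least 2-fold lower at PD60. HIST2H2AB TRCN0000074248 had 2033, 5798, 20585, 33754 and 7136 CPM, and HIST1H2BH TRCN0000106883 had 270.0, 1147, 2300.0, 6262 and 2699 CPM. The 6 further hairpins that name HIST2H2AB and the 7 that name HIST1H2BH were all at least 2-fold lower at PD60.

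Enzymes that methylate histones were the targets of single members. PRDM9, which trimethylates H3K4 and places recombination sites in meiosis, was the target of TRCN0000016807, with 1002, 5898, 21252, 11931 and 33900.1 CPM. The PRDM9 hairpin was lower at PD55 than at PD50 and highest at PD60, where its 4 sister hairpins, at 124 to 692 tags at PD40, were all at 0. SETD2 trimethylates H3K36, and TRCN0000003033 had 403, 798, 884, 6028 and 33266 CPM, higher at every step. Its ratio at PD60, 82.6 (79.9 to 85.4), was the highest of the 44. The other 4 SETD2 hairpins were at least 2-fold lower at PD60, with at most 80 tags.

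SUV39H2, an H3K9 methyltransferase of heterochromatin, was the target of TRCN0000006938, which was 3.85-fold above PD40 at PD55 and 3.13-fold at PD60. PRDM16, a zinc finger factor known for brown fat identity, was the target of TRCN0000020044, at 3.49-fold and 4.84-fold. By list, members were 1 of 87 hairpins against H3K4 methyltransferases and their subunits (1.15%), 1 of 53 against H3K9 methyltransferases and heterochromatin proteins (1.89%), 1 of 43 against H3K36, H3K79 and H4K20 methyltransferases (2.33%) and 1 of 65 against PRDM factors (1.54%), a list that leaves out PRDM9, which was counted with the H3K4 methyltransferases. These shares rest on 1 member each, and the share over all hairpins was 1.29%. No member targeted the arginine methyltransferases (38 hairpins) or the histone lysine demethylases (105 hairpins).

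Acetylation gave 4 members among 108 acetyltransferase hairpins (3.70%) and 1 among 95 deacetylase and sirtuin hairpins (1.05%), against 1.29% of all hairpins. These shares rest on few members and were not tested, and 102 of the 108 acetyltransferase hairpins were at least 2-fold lower at PD60. SIRT1, an NAD-dependent deacetylase, was the target of TRCN0000018979, with 403, 920.5, 932, 2626 and 19337 CPM. The SIRT1 hairpin was 2.28-fold above PD40 at PD45, 2.31-fold at PD50, 6.51-fold at PD55 and 47.9-fold at PD60, so most of its ratio was reached in the last step. Its 4 sister hairpins had at most 3 tags at PD60, from 470 to 3564 at PD40.

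MYST1, now KAT8, acetylates H4K16, and TRCN0000034877 was 4.62-fold and 6.73-fold above PD40 at PD55 and PD60. A second MYST1 hairpin, TRCN0000034874, was 3.71-fold higher at PD55 but 0.440 of its PD40 value at PD60. ELP3, the catalytic subunit of Elongator, had a member, TRCN0000001279, that was higher at every step and 11.7-fold above PD40 at PD60, while its 4 sister hairpins, which started at 88 to 273 tags, were all at 0. The hairpin that names the chromodomain genes CDY2A, CDY2B, CDY1 and CDY1B, TRCN0000127914, was 48.1-fold higher at PD55 and 6.02-fold at PD60. It is the only member that names several genes, which its tags do not tell apart. For the p300 gene EP300, TRCN0000009882 was 15.9-fold and 3.24-fold above PD40 at PD55 and PD60. EP300 is the 1 gene whose member held a small part of the gene's tags at PD60, 6.11%, because TRCN0000009884 had 291065 tags and was 3.41-fold above PD40, with a PD55 ratio of 1.01. TADA3L, now TADA3, is an adaptor subunit of the SAGA and ATAC acetyltransferase complexes and stood on no list. TADA3L TRCN0000015733 had 396, 998, 7667, 22666 and 11993 CPM, with a ratio of 57.2 (55.3 to 59.2) at PD55.

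Bromodomain and remodelling proteins gave 4 members. BRD7, a bromodomain subunit of the SWI/SNF complex PBAF, was the target of TRCN0000151543, the most abundant member at PD40, at rank 10. The BRD7 hairpin had 6771, 17660.1, 25094, 22579 and 27217 CPM and stayed within 2.61-fold to 4.02-fold of its start from PD45 on. Of the other 4 BRD7 hairpins 3 were at least 2-fold lower at PD60 and 1 was within 2-fold. ACTL6A, an actin-related subunit of SWI/SNF and INO80, was the target of TRCN0000072275, 3.44-fold and 7.27-fold above PD40 at PD55 and PD60. ACTL6A TRCN0000072277 was 7.62-fold above PD40 at PD55 and 1.26-fold at PD60, and TRCN0000072273 was 1.45-fold at PD60. The SWI/SNF list thus had 2 members among 76 hairpins (2.63%), against 1.29% of all hairpins, a share that rests on 2 members.

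BRD2, a BET protein that binds acetylated histones, was the target of TRCN0000006310, which had 869, 2545, 2389, 1865 and 2450.2 CPM. The BRD2 hairpin was highest at PD45, and its 4 sister hairpins, at 29 to 209 tags at PD40, were at 0 at PD60. TRIM24 TRCN0000021259, against a bromodomain protein with ubiquitin ligase activity, was 5.93-fold and 3.26-fold above PD40 at PD55 and PD60. BRD2 and TRIM24 gave 2 members among the 85 hairpins of the bromodomain list (2.35%), which leaves out BRD7 and EP300, bromodomain proteins counted with SWI/SNF and the acetyltransferases. None of the 155 hairpins of the Polycomb list was a member, nor any of the 153 of the list of ISWI, CHD, NuRD and INO80 remodellers, which leaves out ACTL6A, counted with SWI/SNF. The share over all hairpins was 1.29%, and that of the bromodomain list rests on 2 members.

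Transglutaminases cross-link proteins and peptidylarginine deiminases convert arginine to citrulline, and both act on histones. Of 15 hairpins against TGM1, TGM2 and PADI4, 4 were members (26.7%), against 1.29% of all hairpins. This list holds only these 3 genes and was drawn up with earlier results of these data known, so its share is a description. TGM1, known from the cornified envelope of skin, was the only gene with 2 members. TGM1 TRCN0000036106 had 708, 1882, 2439.7, 1842 and 7374 CPM and TGM1 TRCN0000036108 had 272, 1548, 2389.5, 1786 and 880.1 CPM. Both were above 2-fold from PD45 on, but the first was highest at PD60 and the second at PD50. The other 3 TGM1 hairpins had at most 2 tags at PD60.

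TGM2 TRCN0000000241 had 409.6, 516, 201, 1268 and 22538 CPM, below its start at PD50 and with nearly all of its 55.0 (53.2 to 56.9) ratio gained after PD55. PADI4 TRCN0000051678, against a deiminase known from granulocytes, was higher at each step, with 621, 1146, 2532, 11906 and 16507 CPM. The other 4 hairpins of TGM2 were at least 2-fold lower at PD60, and of the other 4 of PADI4 3 were lower and 1 was at 0.842 of its PD40 value.

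Kinases of growth, damage and immune signalling had single members. ATR, the kinase that answers stalled replication, was the target of TRCN0000039617, with 1097, 5356, 6710.3, 15942 and 18084 CPM, higher at every step. All 7 other ATR hairpins were at least 2-fold lower at PD60. PIK3CA encodes a catalytic subunit of PI3 kinase, and TRCN0000082626 had 350.3, 1724, 5846, 2631 and 15258 CPM, lower at PD55 than on either side. Of its 9 other hairpins 8 were at least 2-fold lower at PD60, and TRCN0000039607 was 1.22-fold above PD40.

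IKBKE, a kinase of innate immune signalling, was the target of TRCN0000010034, with 4213, 9277, 16698, 29006 and 14772 CPM. IKBKE TRCN0000010035 was 5.37-fold above PD40 at PD60 and 1.72-fold at PD55, so it missed the rule at PD55 alone. The other 3 IKBKE hairpins were at least 2-fold lower at PD60. Together the 5 IKBKE hairpins were 3.41-fold above PD40 at PD60. That sum includes the member, chosen for a higher CPM at PD60, so its direction was largely fixed by the rule. STK11, the kinase LKB1, was the target of TRCN0000000410, 14.1-fold above PD40 at PD50 and 4.59-fold at PD60. By list, the ATR hairpin was 1 of 78 hairpins of DNA damage signalling and repair (1.28%). The PIK3CA hairpin was 1 of 122 of PI3 kinase, AKT and mTOR (0.820%), and the IKBKE hairpin 1 of 46 of the NF-kappaB pathway (2.17%). STK11 stood on no list. Among 43 hairpins against histone kinases the 1 member (2.33%) was the TSSK6 hairpin described above. These shares rest on 1 member each, and the share over all hairpins was 1.29%.

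LMNB1 encodes lamin B1, and its hairpins were included as a control that hastens senescence. LMNB1 TRCN0000029272 was a member, with 905, 1454, 1589, 7338 and 18715 CPM, higher at each step and 20.7 (20.2 to 21.2) times PD40 at PD60. The other 4 LMNB1 hairpins started at 2187 to 6031 tags and had at most 308 at PD60. On the list of cell cycle inhibitors and lamin B1 the member was 1 of 39 hairpins (2.56%). That share rests on this 1 member, and the share over all hairpins was 1.29%.

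Structural proteins of chromatin followed. SMC1B, a cohesin subunit of meiosis, was the target of TRCN0000155357, with 2992, 11468, 20669.9, 43293 and 19474 CPM, 1 of 53 hairpins against cohesin, condensin and CTCF (1.89%). HMGB1, an HMG-box protein that bends DNA, was the target of TRCN0000018930, with 732, 4145, 6602, 32745 and 19814 CPM. The SMC1B and HMGB1 hairpins were both highest at PD55. All 5 other hairpins that name HMGB1 were at 0 at PD60, from 153 to 950 tags at PD40. Among them TRCN0000063714 names 5 genes, which its tags do not tell apart. NSBP1, now HMGN5, a nucleosome-binding protein, had the member of lowest abundance at PD40, TRCN0000019876, with 67.1, 155, 413, 744 and 139 CPM. ZBTB4, which binds methylated CpG, was targeted by TRCN0000015787, with 148, 351, 479, 574 and 317 CPM. The ZBTB4 hairpin was the single member among 74 hairpins of DNA methyltransferases and methyl-CpG readers (1.35%). The list shares for SMC1B and ZBTB4 rest on 1 member each, and the share over all hairpins was 1.29%.

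On no list were 13 members, among them TADA3L, HMGB1, STK11 and NSBP1 above. How many of all hairpins stood on no list was not counted, so the 13 cannot be set against the share over all hairpins. Several of the other members on no list target genes known mainly for work in other tissues or outside chromatin. HBB encodes beta-globin of red blood cells, and TRCN0000029098 had 336, 4874, 22787, 60269 and 14771 CPM. Its ratio of 179 (173 to 186) at PD55 was the highest of any member at that time, and by PD60 it was 43.9 (42.3 to 45.6). The other 4 HBB hairpins were at least 2-fold lower at PD60. IL12A, a subunit of the cytokine interleukin 12, was targeted by TRCN0000058775, 14.6-fold and 7.76-fold above PD40 at PD55 and PD60. CIITA, the activator of MHC class II genes, was targeted by TRCN0000019072, at 3.23-fold and 3.76-fold.

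Transcription factors were also among the targets. MAF, a bZIP factor, was the target of TRCN0000000258, with 1249, 15046, 39886, 25727 and 5705 CPM. The MAF hairpin was at rank 3 in the library at PD50 and well below its peak at PD60. MAF TRCN0000000254 was 7.76-fold above PD40 at PD55 and 0.0782 of its PD40 value at PD60. GLI1, a Hedgehog effector, was targeted by TRCN0000020487, with 767, 926, 1436, 1989.8 and 1602 CPM, and FOXC2, a forkhead factor, by TRCN0000015386, which was 6.92-fold and 2.51-fold above PD40 at PD55 and PD60. ID3 TRCN0000017307, against an inhibitor of helix-loop-helix factors, was 3.14-fold and 2.34-fold above. DDX1, an RNA helicase, was targeted by TRCN0000050498, at 2.69-fold and 2.88-fold. MORF4, of the family of the chromodomain protein MRG15, was targeted by TRCN0000015004, with 334, 483, 442, 713 and 1236 CPM.

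Some members lay close to the threshold. The 5 with the smallest value of the lesser ratio were those against NSBP1 (2.08 (1.88 to 2.30) at PD60), GLI1 (2.09 (2.03 to 2.15) at PD60), MORF4 (2.13 (2.04 to 2.23) at PD55), ZBTB4 (2.13 (1.99 to 2.28) at PD60) and BRD2 (2.15 (2.09 to 2.20) at PD55). For NSBP1 and ZBTB4 the counting interval reached below 2. Just outside were RPA1 TRCN0000005985, at 1.97 at PD60, H2AFV TRCN0000106838, at 1.96 at PD55, and TRCN0000106668, which names 5 histone genes, at 1.94 at PD55. TAF3 TRCN0000016612 followed at 1.82 at PD60 and MEN1 TRCN0000009849 at 1.74 at PD55. Of these, TAF3 had been 18.5-fold above PD40 at PD55. At the other end, the highest lesser ratios were those of TSSK6 (53.5), HBB (43.9), TADA3L (30.2), HMGB1 (27.1) and HIST1H2AH (26.7).

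The 44 members named 42 single genes, 6.52% of the 644 single names in the table, and the CDY group. Most other hairpins of the same genes were at least 2-fold lower at PD60. There were 202 of them, 200 with at least 10 tags at PD40, and 21 of the 200 also named other genes. By construction none of them could be 2-fold higher at both PD55 and PD60. At PD60 4 of the 200 (2.00%) were at least 2-fold higher, 5 were within 2-fold and 191 (95.5%) were at least 2-fold lower, 84 of them at 0. Over all 3418 hairpins, members included, 2.28% were at least 2-fold higher at PD60, 95.3% were at least 2-fold lower and 43.8% were at 0. Over the 3374 hairpins outside the set these shares were 1.01%, 96.6% and 44.4%. The median log2 fold change at PD60, with 1 CPM added to both columns, was -5.78 for the other hairpins and -5.86 for all hairpins. Limited to hairpins with as many PD40 tags as the lowest member, the medians were -6.53 over 128 other hairpins and -6.57 over 2279 hairpins.

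At PD45, which played no part in choosing them, 13 of the 200 (6.50%) were at least 2-fold higher, against 5.01% of the hairpins outside the set and 5.76% of all hairpins. At PD50 12 (6.00%) were, against 3.91% and 4.89%, and at PD55 3 (1.5%), against 1.63% and 2.90%. These differences rest on few hairpins and were not tested. The 4 high at PD60 were EP300 TRCN0000009884, IKBKE TRCN0000010035, H2AFZ TRCN0000072584 and a hairpin naming HIST1H2AH, TRCN0000106659, which was 3.85-fold above PD40. The 3 high at PD55 targeted MAF, MYST1 and ACTL6A.

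By gene, counting the CDY group as 1, 35 of 43 had every other hairpin at least 2-fold lower at PD60. In 36 at least 1 other hairpin was at 0, and in PRDM9, HMGB1, ELP3 and BRD2 all of them were. The 35 and the 36 are 81.4% and 83.7% of the 43, with a median of 4 other hairpins each, against 84.5% with every hairpin lower and 90.3% with at least 1 at 0 among the 601 single gene names that no member names, with a median of 5 hairpins. Every other hairpin was at 0 in 4 of the 43 (9.30%), against every hairpin at 0 in 31 of the 601 (5.16%). That difference rests on 4 genes and was not tested. The member or members held a median of 42.8% of their gene's tags at PD40 and 99.6% at PD60. This rise was largely fixed by the rule, since members had to be higher at PD60, where 95.3% of all hairpins were at least 2-fold lower. In 31 of 43 a member was already the gene's most abundant hairpin at PD40. No like count was made for other hairpins, and 30 of the 44 members were among the 684 most abundant hairpins at PD40. Summed over all hairpins that name it, a gene's share of tags was higher at PD60 than at PD40 in 37 of 43. The sum includes the member, chosen for a higher CPM at PD60, so this direction was largely fixed by the rule. The 6 others were MYST1 (0.937 of the PD40 share), GLI1 (0.931), ID3 (0.689), ZBTB4 (0.399), the CDY group (0.252) and NSBP1 (0.248).

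For the 12 genes whose member was most abundant at PD60, the highest of the other hairpins at PD60 differed widely. TRCN0000106659, which names 4 genes including HIST1H2AH, was the only one of them above its PD40 CPM. BRD7 TRCN0000154102 was at 0.740 of its PD40 CPM, SETD2 TRCN0000003029 at 0.374, TGM2 TRCN0000000239 at 0.329 and SMC1B TRCN0000156217 at 0.282. TRCN0000106714, which names 3 genes including H2BFS, was at 0.105, and the other hairpins naming H2BFS also name further genes. Lower ratios were those of LMNB1 TRCN0000029273 (0.0533), NAP1L4 TRCN0000151026 (0.0443), TSSK6 TRCN0000037462 (0.0287) and SIRT1 TRCN0000018980 (0.000878). All others were at 0 for PRDM9 and HMGB1. The lowest other hairpin was at 0 at PD60 for all of the 12 genes except NAP1L4, BRD7 and LMNB1, where NAP1L4 TRCN0000151475 had 4 tags, BRD7 TRCN0000151378 15 and LMNB1 TRCN0000029271 5.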

How the data were processed

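The 50 samples, DNA of 10 plates at each of 5 population doublings, were grouped by their labels. Per the labels' protocols hairpins were amplified by PCR, cut with XhoI and sequenced. Values were deposited as counts of tags per hairpin, in 1 column per population doubling, per the file headers. The submitters' processing notes name Bowtie 1.0.1. How plates were combined is not given in the sources used here, so each column is the authors' pooled value.

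Counts were divided by column totals to CPM. With 1 column per time and members chosen on 3 of the 5 columns, no test was run, and lists were described by counts beside those of all hairpins. Intervals are exact (binomial or conditional on Poisson counts). PCR tags carried no molecular identifiers, so intervals cover counting error only. A count of 0 allows up to 3 tags. Other hairpins are all that name a member's gene. Of the 42 gene names, 34 were current in RefSeq (GRCh38.p14) and 8 an older name of 1 gene. Calculations used Python 3.11.15, numpy 2.4.6, pandas 2.3.3 and scipy 1.17.1, and TMM factors came from edgeR 4.0.16 in R 4.3.3. The selection rule and the intervals were tested on simulated Poisson counts in which most hairpins did not change. The real counts differ from that setting, so the simulation checks the calculation only.

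The members and lists were chosen with earlier results of these data known. Every member was named; full paths were given for the 12 most abundant at PD60, the 5 highest and 5 lowest of the lesser ratio and genes with 2 members, and others named with paths were chosen after their values were seen. Other hairpins were named where they were the highest or lowest of a gene among the 12, and elsewhere after their values were seen. Alternatives covered the tag minimum, the fold threshold, scaling, counting error, pseudocounts and hairpins naming several genes.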

Additional observations from a re-analysis of the deposited data

How the results depend on the processing

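No paired analysis was possible because the table merges the 10 plates of a time, and leaving out a plate was not run for the same reason. A minimum of 3 or of 100 tags at PD40 left the same 44 members. The set depended most on scaling. With TMM factors, 8.94 at PD40 and 0.0777 at PD60, all 44 stayed among 564 members that named 403 genes and held 99.5% of PD60 tags, of which 373 were at least 2-fold higher at PD45 and 512 at PD50. Their other hairpins had a median log2 fold change of -2.17, with 50 at least 2-fold higher at PD60. With column totals taken without the 50 most abundant hairpins, all 44 stayed among 127 members that named 129 genes and held 86.4% of PD60 tags, 66 higher at PD45 and 101 at PD50. The other hairpins then had a median of -5.33 and 8 were higher. Higher and lower throughout therefore mean relative to the column total. A threshold of 4 left 21 members, 24 genes and 42.6% of PD60 tags, with 16 higher at PD45, 20 at PD50 and 1 other hairpin higher at PD60. The PD60 share was 61.9% at a threshold of 1.5 and 50.9% at 3, which left 55 and 33 members. It was 59.7% for the 42 members whose counting intervals lay above 2 and 59.6% for the 43 that name 1 gene. The median of the other hairpins was -8.08 with a pseudocount of 0.1 CPM and -3.07 with 10 CPM, since a larger pseudocount limits the loss that a hairpin at 0 can show.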

Other observations

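Some members followed each other closely. Over the 5 times the ratio of the BRD7 hairpin TRCN0000151543 to the CIITA hairpin TRCN0000019072 stayed between 27.8 and 34.7, a range of 1.25-fold, although their counts at PD40 were 58407 and 2102 tags. The H2AFZ hairpin TRCN0000072585 stayed between 1.53 and 2.05 times the EP300 hairpin TRCN0000009882, a range of 1.35-fold. Of the 946 pairs of members, 4 kept their ratio within a 1.5-fold range and 24 within a 2-fold range, and the median range was 8.63-fold. The closest pairs were picked from all pairs after their values were seen, so closeness of a few is no finding.

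Among the 44 members the order of abundance at PD60 had a Spearman's rho of 0.71 with the order at PD40, 0.68 with that at PD55 and 0.54 with that at PD50. The rule used PD40, PD55 and PD60, which ties those orders together. The ratio to PD40 at PD50 followed the ratio at PD55 (0.79) more than the ratio at PD60 (0.18). All are descriptions over 44 hairpins that share the same 5 columns, and ratios share their PD40 column.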
